A study of Oryza sativa with 6 samples.

Results

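Membrane transporters are described here in rice seedlings that carry transgenes directed at OsRDR3, a member of the RNA-dependent RNA polymerases, which make double-stranded RNA for RNA silencing. A locus was taken as a transporter if its Gene Ontology (GO) molecular function held the term for transporter activity, transmembrane transporter activity or ATPase-coupled transmembrane transporter activity, or if its protein name held "transporter" or "WAT1-related". Loci placed by GO in the chloroplast, the thylakoid or the Golgi apparatus were left out, as was NRAMP5. By this rule 171 of the 6921 loci in either table were transporters, 129 of 4341 in the table for the knock-down label and 96 of 4295 in the over-expression table. Of the 171 loci, 40 had a protein name in the tables and 131 did not, so their substrate class came from GO terms alone. The largest class, of 76 loci, had no more than a general transporter term.

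All 6 libraries came from total RNA of 5-week-old seedlings of the indica cultivar Pusa Basmati 1 (PB1), a scented rice. They formed 3 groups of 2 libraries, which were OsRDR3 over-expression, OsRDR3 knock-down and wild type. The labels do not state the promoter and construct of each transgene, nor whether the 2 libraries of a group came from separate lines, plants or pools, so their spread may be technical. The values were the authors' pooled FPKM (fragments scaled to transcript length and library size), 1 per group and locus, so no spread between libraries can be given and the depth is unknown. Loci appear in a table up to an unadjusted p of 0.05, and a locus was called where the authors' q-value was under 0.05. Transporters outside these lists are not analysed here. Both comparisons share the same wild-type libraries.

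Transporters carry solutes across lipid bilayers that ions and polar metabolites cannot cross unaided. In plants, ABC (ATP-binding cassette) transporters use the energy of ATP hydrolysis directly, whereas most ion, sugar, nitrogen and phosphate carriers are driven by the proton gradient that membrane ATPases maintain. In rice seedlings they serve uptake of minerals from soil, loading of sugars into the phloem, storage in the vacuole and export of lipids, hormones and defence compounds.

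Before the transporters, the labels were checked at loci annotated as RNA-dependent RNA polymerases, and the knock-down label was not borne out at these loci. BGIOSGA002194, on chromosome 1 from 5687015 to 5701037 and annotated as an RNA-dependent RNA polymerase, had 69.5 FPKM in libraries labelled knock-down, against 0.190 FPKM in wild type, in the authors' deposited table (q = 0.000868). At this locus over-expression libraries had 58.7 FPKM, against 0.198 FPKM in wild type, in the authors' deposited table (q = 0.00105). The tables do not name the locus as OsRDR3, but it was the one such polymerase listed in both, and it was higher than wild type under both labels. The knock-down group is therefore called the libraries labelled knock-down throughout. Since the constructs are not stated, reads from a transgene and from the gene itself cannot be told apart at BGIOSGA002194. The other polymerase listed, BGIOSGA009008, had 7.63 FPKM in libraries labelled knock-down and 4.396 FPKM in wild type, in the authors' deposited table (q = 0.000868). Genes of the green leaf (chlorophyll-binding proteins, the Rubisco small subunit and photosystem I subunits) were listed in both comparisons. Of 22 such genes listed for the knock-down label 0 rose and 19 fell, with a summed level of 7792 FPKM in libraries labelled knock-down and 25050 FPKM in wild type, in the authors' deposited table. The sum includes 3 genes that did not pass the authors' Cuffdiff test. Among these BGIOSGA003922 had 1276 FPKM in libraries labelled knock-down and 5074 FPKM in wild type (q = 0.0711). Of 15 green leaf genes listed for over-expression 1 rose and 5 fell, with a sum of 7238 FPKM in over-expression libraries and 12113 FPKM in wild type, in the authors' deposited table. This sum includes 9 genes that did not pass. Among these RBCS had 2432 FPKM in over-expression libraries and 4491 FPKM in wild type (q = 0.189). Of all listed loci 17.6 percent rose and 36.7 percent fell for the knock-down label, and 37.9 percent rose and 13.6 percent fell for over-expression. Of the other marker lists, root genes had 1 listed locus in each table, called higher in both cases (NAS2 for the knock-down label and NRAMP5 for over-expression), floral and seed genes had 0, and 4 genes of dividing cells were listed for over-expression, all 4 of them called higher. Their part in the transporter results was not tested. In whole seedlings, fewer cells of a type and less RNA per cell cannot be told apart.

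Among libraries labelled knock-down, 87 of the 129 listed transporters (67.4%) were called, and 54.3 percent of all 4341 listed loci were. Of all listed transporters 24% rose, 31 in number, against a background of 17.6 percent, and 43.4% fell, 56 in number, against 36.7 percent. The share of rises among called loci was 35.6% for transporters and 32.5% for all listed loci. Changes of at least 2-fold were called for 19 transporters upwards (14.7%, background 11.6 percent) and for 29 downwards (22.5%, background 17.5 percent). The median log2 fold change of the 129 loci was -0.60, beside -0.58 for all listed loci, in the authors' deposited table. Their log2 fold changes ran between -4.83 and 3.78 in the authors' deposited table.

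In over-expression libraries 44 of the 96 listed transporters (45.8%) were called, with a background of 51.5 percent. Rises numbered 27 (28.1%, background 37.9 percent) and falls numbered 17 (17.7%, background 13.6 percent). The share of rises among called loci was 61.4% for transporters and 73.5% for all listed loci. At least 2-fold, 16 rose (16.7%, background 22.4 percent) and 6 fell (6.25%, background 2.7 percent). The median log2 fold change was 0.45, beside 0.67 for all listed loci, in the authors' deposited table. The range was -1.73 to 4.42 in the authors' deposited table, and the locus at its top was not called (BGIOSGA019650, q = 0.0864). When the median of all listed loci was subtracted (centring), the called transporters split into 19 higher and 25 lower, and all called loci into 1381 higher and 829 lower. In the table for the knock-down label the same centring gave 37 higher and 50 lower among transporters, and 895 higher and 1462 lower among all called loci. The medians of all listed loci lie away from 0, and log2 fold changes are given uncentred except where stated. The split by substrate class is shown in the plot of called loci per class.

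**Figure D1:**
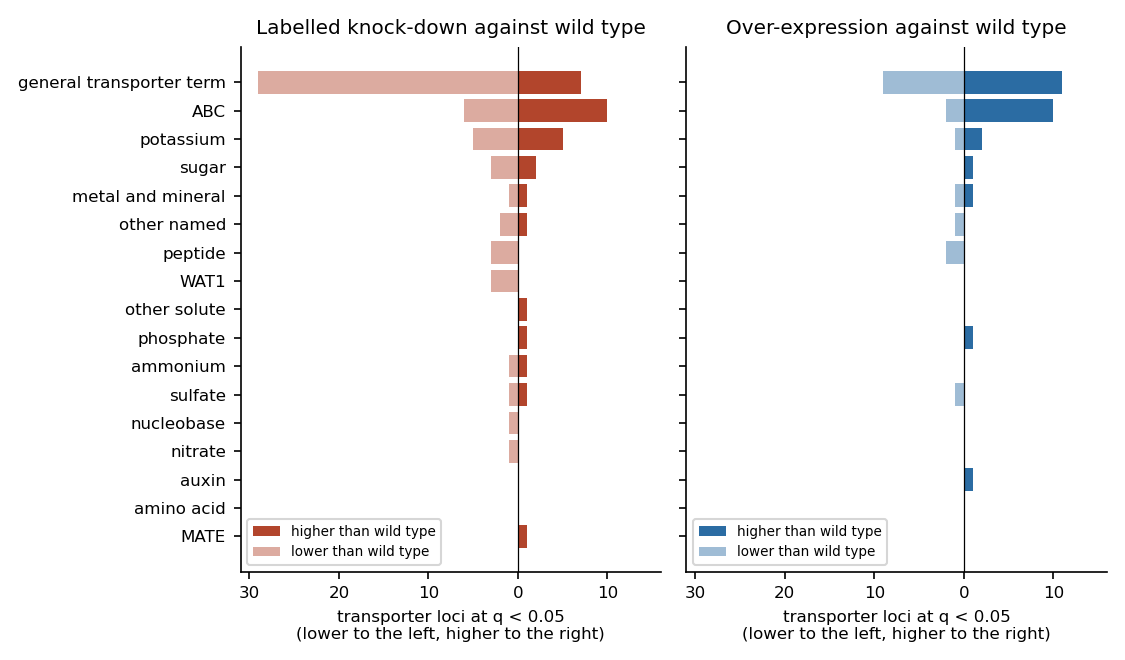
Number of called transporter loci (x axis, q under 0.05, rises to the right of 0 and falls to the left) in each substrate class (y axis), for libraries labelled knock-down and for over-expression libraries, each against wild type. The general class had 7 rises and 29 falls in libraries labelled knock-down, and the ABC class had 10 rises and 6 falls.

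Potassium transporters, which take up potassium and move it between tissues and the vacuole, were split in libraries labelled knock-down. All 12 were named by protein, and of the 11 listed there, 5 rose (17.6 percent of all listed loci rose), 5 fell (36.7 percent) and 1 did not pass. The largest rise was at BGIOSGA016324 on chromosome 4, with 1.51 FPKM in libraries labelled knock-down and 0.526 FPKM in wild type in the authors' deposited table (log2 fold change 1.52, q = 0.0016). BGIOSGA023739 had 19.6 FPKM in libraries labelled knock-down and 9.12 FPKM in wild type in the authors' deposited table (log2 fold change 1.10, q = 0.000868). It was the potassium transporter with the highest level in those libraries among the loci listed. In over-expression libraries the same locus had 12.7 FPKM, against 9.51 FPKM in wild type, which did not pass in the authors' deposited table (q = 0.126). BGIOSGA030867 rose 1.86-fold, to 9.19 FPKM in libraries labelled knock-down, against 4.94 FPKM in wild type, in the authors' deposited table (q = 0.000868).

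The falls were led by neighbouring genes on chromosome 3. BGIOSGA010387 (23704789 to 23713546) had 2.50 FPKM in libraries labelled knock-down and 10.2 FPKM in wild type, in the authors' deposited table (log2 fold change -2.03, q = 0.000868). At the same locus over-expression libraries had 4.54 FPKM, against 10.7 FPKM in wild type, in the authors' deposited table (log2 fold change -1.23, q = 0.00105). Of the 6 potassium transporters listed for over-expression it was the 1 called lower, while 2 rose and 3 did not pass. Of all loci listed for over-expression 37.9 percent rose and 13.6 percent fell. BGIOSGA023447 also lay lower there without passing, at -0.54 in log2 fold change per the authors' deposited table (q = 0.0619). BGIOSGA010386 (23733533 to 23737882), 19987 bases away, had 1.85 FPKM in libraries labelled knock-down and 4.71 FPKM in wild type, in the authors' deposited table (log2 fold change -1.35, q = 0.000868). These neighbours and BGIOSGA016324 carry the GO term for potassium:sodium symport, so the genes with that term differed in direction in libraries labelled knock-down. Smaller falls were called for BGIOSGA024998, BGIOSGA023447 and BGIOSGA029263, at -0.63, -0.61 and -0.56 in log2 fold change per the authors' deposited table. The median of all loci listed for that label was -0.58, so the direction of BGIOSGA029263 depends on the scaling.

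A pair of potassium transporters rose in each comparison. BGIOSGA012582 had 7.28 FPKM in libraries labelled knock-down and 4.49 FPKM in wild type (q = 0.00515), and 9.22 FPKM in over-expression libraries and 4.68 FPKM in wild type (q = 0.00105), in the authors' deposited tables. BGIOSGA005122 had 4.32 FPKM in libraries labelled knock-down and 2.64 FPKM in wild type (q = 0.0155), and 4.36 FPKM in over-expression libraries and 2.75 FPKM in wild type (q = 0.0373), in the authors' deposited tables. After centring, the over-expression value of BGIOSGA005122 was at -0.008413 on the log2 scale, so its direction there depends on the scaling. HKT1, a sodium and potassium carrier, had 0.307 FPKM in libraries labelled knock-down and 1.41 FPKM in wild type but did not pass in the authors' deposited table (q = 0.0518). Among potassium channels, which are not in the transporter set, AKT1 fell to 2.004 FPKM in libraries labelled knock-down, against 5.32 FPKM in wild type, in the authors' deposited table (log2 fold change -1.41, q = 0.000868).

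**Figure D2:**
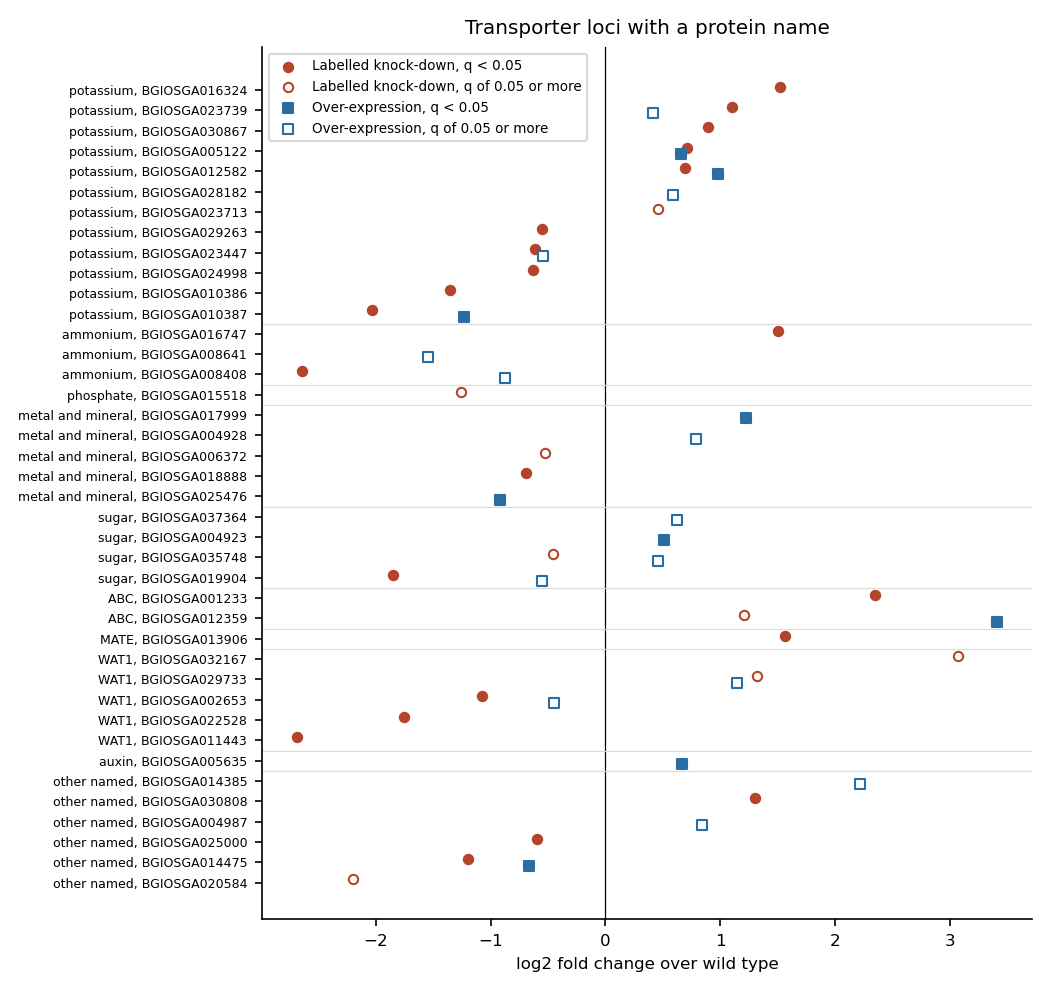
Log2 fold change over wild type (x axis) of the transporter loci that have a protein name (y axis, class and locus), with filled points for q under 0.05 and open points for the rest, for libraries labelled knock-down and for over-expression libraries. Potassium transporters lie on both sides of 0, between -2.03 and 1.52 in libraries labelled knock-down, and 3 of the 5 WAT1-related proteins were called, below 0, and the other 2 lie above 0 without passing.

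Nitrogen carriers moved in both directions in libraries labelled knock-down. Of the 3 ammonium and nitrate transporters listed for over-expression, 0 passed the authors' Cuffdiff test, and 51.5 percent of all listed loci did. All 3 had an unadjusted p of up to 0.05, as every listed locus has. Ammonium transporters move the main form of nitrogen in flooded soil. BGIOSGA008408 had 0.319 FPKM in libraries labelled knock-down and 1.99 FPKM in wild type, in the authors' deposited table (log2 fold change -2.64, q = 0.00966). BGIOSGA016747 had 2.99 FPKM in libraries labelled knock-down and 1.06 FPKM in wild type, in the authors' deposited table (log2 fold change 1.504, q = 0.00565). In over-expression libraries BGIOSGA008408 had 1.13 FPKM, against 2.08 FPKM in wild type, in the authors' deposited table (q = 0.126). The nitrate carrier BGIOSGA027635 had 14.5 FPKM in libraries labelled knock-down and 23.0 FPKM in wild type (q = 0.00465), beside 31.0 FPKM in over-expression libraries and 24.0 FPKM in wild type (q = 0.173), in the authors' deposited tables. The difference between the comparisons was not tested.

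Peptide transporters carry di- and tripeptides or longer oligopeptides, and the called ones were lower than wild type in each comparison. Of 5 listed in the table for the knock-down label 3 fell and 2 did not pass, and of 4 listed for over-expression 2 fell and 2 did not pass. Those not passing for the knock-down label lay above wild type, BGIOSGA004898 at 0.65 (q = 0.0573) and BGIOSGA022659 at 0.61 (q = 0.0565) in log2 fold change. For over-expression BGIOSGA004898 lay above wild type at 0.66 (q = 0.0695) and BGIOSGA032430 below it at -0.74 (q = 0.0732), per the authors' deposited tables. Falls were called for 36.7 percent of all loci listed for the knock-down label and 13.6 percent of those for over-expression. BGIOSGA003753, on chromosome 1 from 23321315 to 23323016, had 0.289 FPKM in libraries labelled knock-down and 6.36 FPKM in wild type, in the authors' deposited table (log2 fold change -4.46, q = 0.000868). In over-expression libraries it had 2.84 FPKM, against 6.63 FPKM in wild type, in the authors' deposited table (log2 fold change -1.22, q = 0.00105). This locus carries terms for oligopeptide and divalent metal transport. BGIOSGA011487, annotated for di- and tripeptides, had 13.1 FPKM in libraries labelled knock-down and 20.7 FPKM in wild type (q = 0.00352), and 13.1 FPKM in over-expression libraries and 21.6 FPKM in wild type (q = 0.00273), in the authors' deposited tables. Glutamine synthetase, the enzyme that assimilates ammonium, was listed beside them. Its locus BGIOSGA014182 had 84.8 FPKM in libraries labelled knock-down and 165 FPKM in wild type, in the authors' deposited table (log2 fold change -0.96, q = 0.000868). In over-expression libraries BGIOSGA014182 had 110 FPKM, against 172 FPKM in wild type, in the authors' deposited table (log2 fold change -0.64, q = 0.0188).

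Phosphate carriers, sulfate carriers and metal carriers were few. The phosphate carrier BGIOSGA011440 had 21.2 FPKM in over-expression libraries and 10.4 FPKM in wild type, in the authors' deposited table (log2 fold change 1.02, q = 0.00105). In libraries labelled knock-down it had 13.1 FPKM, against 10.02 FPKM in wild type, in the authors' deposited table (q = 0.160). PHT1-4, a proton-coupled phosphate carrier, had 0.378 FPKM in libraries labelled knock-down and 0.906 FPKM in wild type and did not pass in the authors' deposited table (q = 0.137). Another phosphate locus, BGIOSGA031825, rose by 0.67 (log2) in libraries labelled knock-down, per the authors' deposited table (q = 0.0422). The sulfate carrier BGIOSGA014204 fell in each comparison. It had 9.16 FPKM in libraries labelled knock-down and 16.4 FPKM in wild type (q = 0.000868), and 10.6 FPKM in over-expression libraries and 17.2 FPKM in wild type (q = 0.00485), in the authors' deposited tables. The other sulfate carrier, BGIOSGA021946, rose to 7.71 FPKM in libraries labelled knock-down, against 5.17 FPKM in wild type, in the authors' deposited table (q = 0.0289).

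NRAMP1, a metal carrier of the family that moves iron, manganese and cadmium, fell in over-expression libraries. It lies on chromosome 7 from 8975052 to 8979363 and had 27.7 FPKM in over-expression libraries and 52.3 FPKM in wild type, in the authors' deposited table (log2 fold change -0.91, q = 0.00105). A probable magnesium transporter, BGIOSGA017999, rose to 3.10 FPKM in over-expression libraries, against 1.32 FPKM in wild type, in the authors' deposited table (log2 fold change 1.23, q = 0.0456). The metal and metalloid carrier MTP1 fell to 12.1 FPKM in libraries labelled knock-down, against 19.4 FPKM in wild type, in the authors' deposited table (log2 fold change -0.69, q = 0.00465). The metals gave 1 rise and 1 fall among 4 listed loci in each table. The other rise was BGIOSGA035937, annotated for iron homeostasis, with 2.47 FPKM in libraries labelled knock-down and 1.23 FPKM in wild type, in the authors' deposited table (q = 0.0264). Of all listed loci 17.6 percent rose and 36.7 percent fell for the knock-down label, and 37.9 percent rose and 13.6 percent fell for over-expression.

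Of the sugar carriers, 2 of 7 listed rose and 3 fell in libraries labelled knock-down, and 1 of 7 listed for over-expression rose and 0 fell. The shares over all listed loci were 17.6 percent higher and 36.7 percent lower for the knock-down label, and 37.9 percent higher and 13.6 percent lower for over-expression. SWEET proteins let sugars pass in either direction down their gradient. SWEET1B, on chromosome 5 from 22120020 to 22123202, had 2.43 FPKM in libraries labelled knock-down and 8.75 FPKM in wild type, in the authors' deposited table (log2 fold change -1.85, q = 0.000868). SWEET1B had 6.21 FPKM in over-expression libraries, against 9.12 FPKM in wild type, in the authors' deposited table (q = 0.185). Another SWEET, BGIOSGA004923, had 43.2 FPKM in over-expression libraries and 30.3 FPKM in wild type, in the authors' deposited table (log2 fold change 0.51, q = 0.0432), and its centred value was -0.16. This was the one called sugar carrier in that comparison, and its direction reverses with centring. BGIOSGA007830, a carbohydrate carrier placed in the vacuole, had 10.7 FPKM in libraries labelled knock-down and 57.7 FPKM in wild type, in the authors' deposited table (log2 fold change -2.43, q = 0.000868). In over-expression libraries it lay just past the threshold, with 42.0 FPKM against 60.2 FPKM in wild type, in the authors' deposited table (q = 0.0506).

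Both rises among sugar carriers in libraries labelled knock-down exceeded 2-fold. BGIOSGA011205 had 6.23 FPKM in libraries labelled knock-down and 0.853 FPKM in wild type, in the authors' deposited table (log2 fold change 2.87, q = 0.000868). BGIOSGA024972 had 11.5 FPKM in libraries labelled knock-down and 2.73 FPKM in wild type, in the authors' deposited table (log2 fold change 2.07, q = 0.000868). These loci without a protein name were chosen for mention after their values were seen. SUT2, a sucrose and proton symporter of the vacuole membrane, was not called in either comparison, with q = 0.174 for libraries labelled knock-down and q = 0.131 for over-expression in the authors' deposited tables. Sucrose synthase, which splits sucrose in sink tissues, rose in each comparison at BGIOSGA010570. At this locus over-expression libraries had 328 FPKM, against 95.9 FPKM in wild type, in the authors' deposited table (log2 fold change 1.77, q = 0.00105). At the knock-down label its log2 fold change was 0.61 per the authors' deposited table (q = 0.0219). Of the 5 sucrose metabolism enzymes listed for that label, 3 rose and 2 fell, and SPS1 was among the falls. Of 3 such enzymes listed for over-expression, 2 rose and 0 fell. The shares over all listed loci are those given above for the sugar carriers.

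ABC transporters, which export hormones, lipids and toxic compounds or load the vacuole, formed a class of 31 loci. Of these 2 had an ABC protein name, and the rest were placed here by an ATPase activity term alone, so some may belong to other ATP-driven families. For the knock-down label 10 of 23 listed rose and 6 fell, and in over-expression libraries 10 of 21 rose and 2 fell. Of all listed loci 17.6 percent rose and 36.7 percent fell for the knock-down label, and 37.9 percent rose and 13.6 percent fell for over-expression, so the over-expression counts lie near the background. The 21 loci listed for over-expression had a median of -0.41 on a log2 scale, taken from the authors' deposited table and opposite in sign to most of the calls. The largest called ABC changes in over-expression libraries were at genes with little signal in wild type. ABCG5, a member of the G family whose relatives export lipid precursors of surface barriers, lies on chromosome 3 from 10513977 to 10516341. It had 3.91 FPKM in over-expression libraries and 0.368 FPKM in wild type, in the authors' deposited table (log2 fold change 3.41, q = 0.00105). In libraries labelled knock-down it had 0.812 FPKM, against 0.353 FPKM in wild type, and did not pass in the authors' deposited table (q = 0.0717). BGIOSGA002266, annotated for cuticle development and drug transport, had 9.62 FPKM in over-expression libraries and 0.891 FPKM in wild type, in the authors' deposited table (log2 fold change 3.43, q = 0.00105). In libraries labelled knock-down it rose to 1.73 FPKM, against 0.853 FPKM in wild type, in the authors' deposited table (log2 fold change 1.02, q = 0.00228).

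With larger folds, and chosen for mention after their values were seen, were BGIOSGA005802 and BGIOSGA014966. BGIOSGA005802 had 4.95 FPKM in over-expression libraries and 0.310 FPKM in wild type, in the authors' deposited table (log2 fold change 3.999, q = 0.00105). BGIOSGA014966 had 1.96 FPKM in over-expression libraries and 0.164 FPKM in wild type, in the authors' deposited table (log2 fold change 3.58, q = 0.00105). Wild-type levels of both lay under 1 FPKM, as did those of 19 of the 96 transporters listed for over-expression and 21 of the 129 listed for the knock-down label. At the knock-down label ABCG36, a pleiotropic drug resistance protein, was the only called ABC locus that has a protein name. It lies on chromosome 1 from 27066133 to 27073076 and had 3.14 FPKM in libraries labelled knock-down and 0.618 FPKM in wild type, in the authors' deposited table (log2 fold change 2.35, q = 0.000868). Also chosen after their values were seen, BGIOSGA000971 rose 13.3-fold to 8.34 FPKM and BGIOSGA034472 rose 6.05-fold to 5.996 FPKM in libraries labelled knock-down, against 0.628 and 0.990 FPKM in wild type, in the authors' deposited table (both q = 0.000868).

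Further ABC loci were called in each comparison. BGIOSGA029208, annotated for auxin influx and efflux, had 8.84 FPKM in over-expression libraries and 4.11 FPKM in wild type (q = 0.00105), and 5.73 FPKM in libraries labelled knock-down and 3.94 FPKM in wild type (q = 0.0344), in the authors' deposited tables. BGIOSGA000896 had 14.8 FPKM in libraries labelled knock-down and 7.45 FPKM in wild type (q = 0.000868), and 11.5 FPKM in over-expression libraries and 7.77 FPKM in wild type (q = 0.0231), in the authors' deposited tables. BGIOSGA001856 rose by 0.54 for the knock-down label and by 0.50 for over-expression on a log2 scale, per the authors' deposited tables (q = 0.0273 and q = 0.0478). BGIOSGA014245 had opposite calls in these comparisons. It had 0.997 FPKM in libraries labelled knock-down and 3.25 FPKM in wild type (log2 fold change -1.70, q = 0.000868), and 5.00 FPKM in over-expression libraries and 3.39 FPKM in wild type (log2 fold change 0.56, q = 0.0442), in the authors' deposited tables. After centring, the over-expression values of BGIOSGA000896, BGIOSGA001856 and BGIOSGA014245 were -0.10, -0.17 and -0.11 on the log2 scale, so these directions depend on the scaling. Values near the threshold were q = 0.0484 for BGIOSGA018135 in over-expression libraries, just inside it, and q = 0.0508 for BGIOSGA004262 in libraries labelled knock-down, just outside it, in the authors' deposited tables.

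Carriers of organic compounds and auxin included called loci in each table. A DETOXIFICATION (MATE) protein, BGIOSGA013906, of the family that exchanges protons for organic compounds, had 1.35 FPKM in libraries labelled knock-down and 0.455 FPKM in wild type, in the authors' deposited table (log2 fold change 1.57, q = 0.0356). WAT1-related proteins, whose founding member in Arabidopsis releases auxin from the vacuole, had 3 falls and 0 rises among 5 listed for the knock-down label, with 36.7 percent of all listed loci lower. The other 2 lay above wild type without passing, BGIOSGA032167 at 3.07 (q = 0.0834) and BGIOSGA029733 at 1.32 (q = 0.0935) in log2 fold change, per the authors' deposited table. The largest fall was at BGIOSGA011443, with 1.06 FPKM in libraries labelled knock-down and 6.80 FPKM in wild type, in the authors' deposited table (log2 fold change -2.69, q = 0.000868). BGIOSGA022528 had 0.906 FPKM in libraries labelled knock-down and 3.05 FPKM in wild type, in the authors' deposited table (log2 fold change -1.75, q = 0.00724). BGIOSGA002653, at a higher level, had 27.6 FPKM in libraries labelled knock-down and 58.3 FPKM in wild type, in the authors' deposited table (log2 fold change -1.08, q = 0.000868). In over-expression libraries BGIOSGA002653 had 44.7 FPKM, against 60.8 FPKM in wild type, and was not called in the authors' deposited table (q = 0.0843). The auxin efflux carrier BGIOSGA005635 had 9.50 FPKM in over-expression libraries and 5.97 FPKM in wild type, in the authors' deposited table (log2 fold change 0.67, q = 0.0127), and its centred value was -0.00042.

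Glutamate receptors, ligand-gated cation channels that carry the transporter terms, included BGIOSGA014475, which fell in each comparison. It had 12.3 FPKM in libraries labelled knock-down and 28.3 FPKM in wild type (q = 0.000868), and 18.6 FPKM in over-expression libraries and 29.5 FPKM in wild type (q = 0.00552), in the authors' deposited tables. At the knock-down label BGIOSGA030808 rose to 2.12 FPKM, against 0.859 FPKM in wild type, and BGIOSGA025000 fell to 3.63 FPKM, against 5.50 FPKM in wild type, in the authors' deposited table (q = 0.000868 and q = 0.0279). A malate carrier chosen after its value was seen, BGIOSGA031000, rose to 4.77 FPKM in libraries labelled knock-down, against 0.947 FPKM in wild type, in the authors' deposited table (log2 fold change 2.33, q = 0.000868).

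The 76 loci with a general transporter term held the highest level and the largest fall. For the knock-down label 7 of 55 listed rose and 29 fell, and in over-expression libraries 11 of 39 rose and 9 fell. The shares of all listed loci were 17.6 percent higher and 36.7 percent lower for the knock-down label, and 37.9 percent higher and 13.6 percent lower for over-expression. The highest level of any transporter listed was at BGIOSGA031177 on chromosome 9, with 97.4 FPKM in libraries labelled knock-down and 305 FPKM in wild type, in the authors' deposited table (log2 fold change -1.64, q = 0.000868). The largest fall by fold was at BGIOSGA018063 on chromosome 5, with 0.164 FPKM in libraries labelled knock-down and 4.66 FPKM in wild type, in the authors' deposited table (log2 fold change -4.83, q = 0.0459). In over-expression libraries it had 1.47 FPKM, against 4.86 FPKM in wild type, in the authors' deposited table (log2 fold change -1.73, q = 0.00273). Its q-value in the table for the knock-down label was the largest of any called transporter there, although its fold was the largest. BGIOSGA038024, on an unplaced scaffold, fell by 1.95 in libraries labelled knock-down and by 0.64 in over-expression libraries on a log2 scale, per the authors' deposited tables (q = 0.000868 and q = 0.0207).

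Some general loci were called with opposite signs, and these are given side by side. BGIOSGA025620 had 44.1 FPKM in libraries labelled knock-down and 64.4 FPKM in wild type (q = 0.0198), and 129 FPKM in over-expression libraries and 67.2 FPKM in wild type (q = 0.00105), in the authors' deposited tables. Centring moved its value for the knock-down label to 0.04 on the log2 scale. BGIOSGA033375 had 12.5 FPKM in libraries labelled knock-down and 19.7 FPKM in wild type (q = 0.00292), and 29.1 FPKM in over-expression libraries and 20.5 FPKM in wild type (q = 0.0463), in the authors' deposited tables. Its centred over-expression value was -0.17. Further general loci fell in each comparison with smaller folds. BGIOSGA032391 fell by 1.07 for the knock-down label and by 0.68 for over-expression on a log2 scale, per the authors' deposited tables (q = 0.000868 and q = 0.00846). BGIOSGA020982 fell by 1.13 for the knock-down label and by 0.86 for over-expression on a log2 scale, per the authors' deposited tables (q = 0.000868 and q = 0.00732). BGIOSGA036099 and BGIOSGA001567 fell by 0.67 and 0.49 for the knock-down label, and by 0.52 and 0.53 for over-expression, on a log2 scale, per the authors' deposited tables. For BGIOSGA001567 the centred value for the knock-down label was 0.09. The plot of the loci called in both tables gives each of them, which are the 21 that the naming rule takes. How many of all listed loci were called in both is not given here, so the 21 have no background beside them. Both comparisons share the wild-type libraries, so calls of the same direction in both are not independent.

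**Figure D3:**
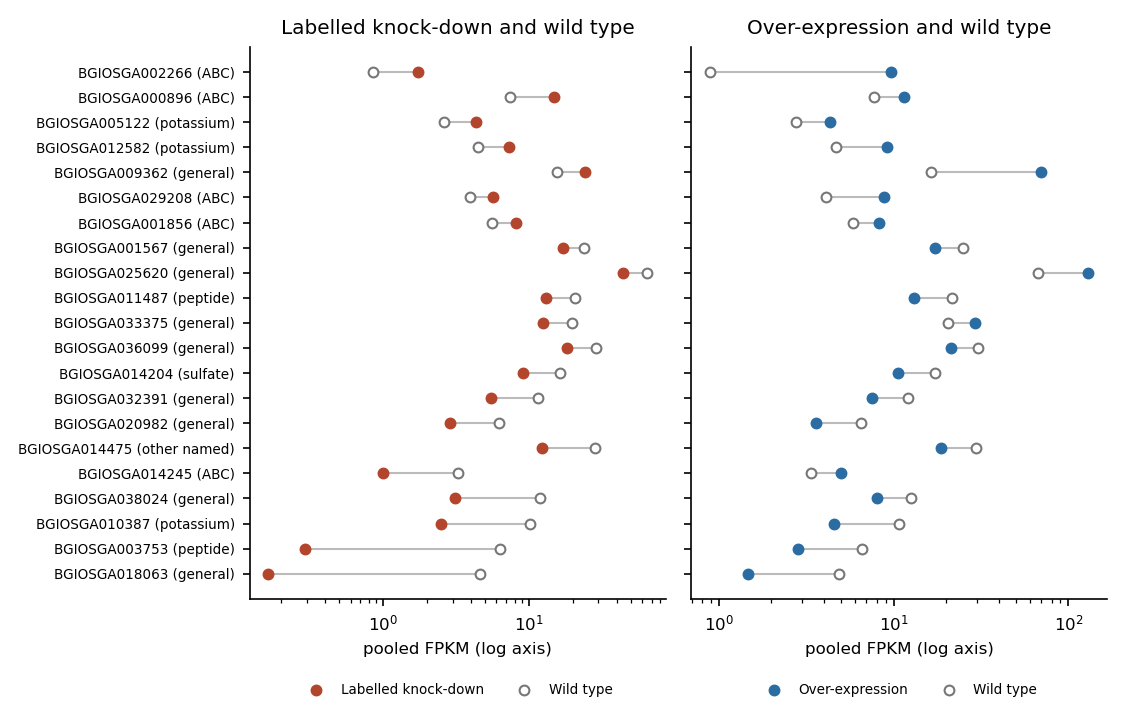
Pooled FPKM (x axis, log scale) of the 21 transporter loci called in both tables (y axis, locus), with the transgenic value and its wild-type value joined by a line, for libraries labelled knock-down and for over-expression libraries. BGIOSGA003753 shows the widest gap apart from BGIOSGA018063 in libraries labelled knock-down, at 0.289 FPKM against 6.36 FPKM in wild type.

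Levels and folds of all listed transporters are set out in the plot of change against wild-type level. In over-expression libraries the locus with the highest level was BGIOSGA025620, at 129 FPKM in the authors' deposited table. Among transporters with high wild-type levels, BGIOSGA004890 rose to 115 FPKM in libraries labelled knock-down, against 74.0 FPKM in wild type, in the authors' deposited table (log2 fold change 0.63, q = 0.00616). Median levels of the listed transporters were 3.99 FPKM in libraries labelled knock-down and 4.54 FPKM in wild type, and 4.97 FPKM in over-expression libraries and 4.13 FPKM in wild type, in the authors' deposited tables.

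**Figure D4:**
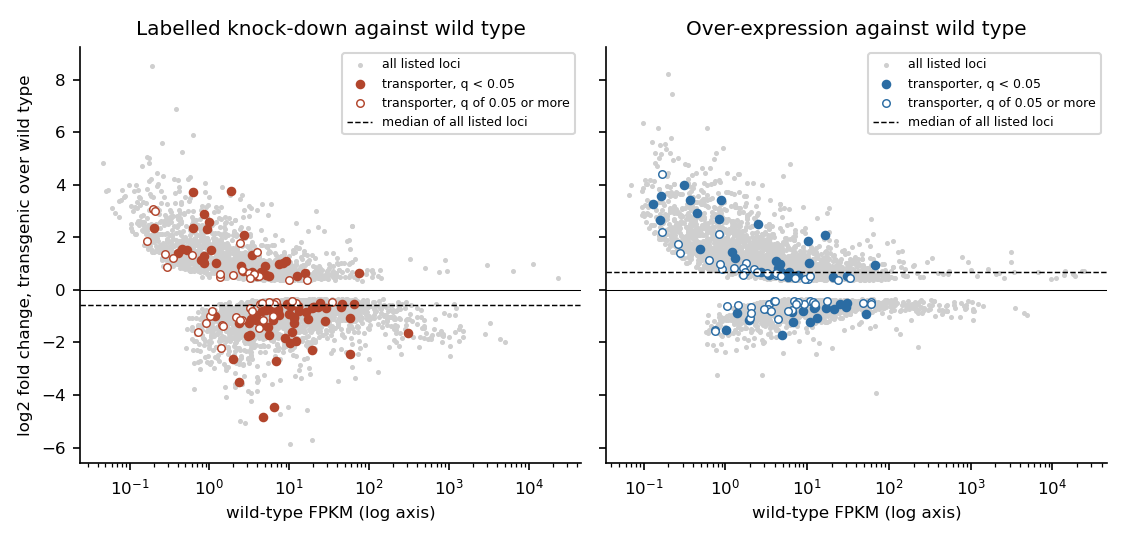
Log2 fold change over wild type (y axis) against wild-type FPKM (x axis, log scale) for every listed transporter locus, filled where q was under 0.05, for libraries labelled knock-down and for over-expression libraries. The points run between -4.83 and 3.78 in libraries labelled knock-down, and the locus at 305 FPKM in wild type lies below 0.

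By the membrane that GO names, 10 of 34 plasma membrane transporters rose and 11 fell in libraries labelled knock-down, and 13 of 31 rose and 1 fell in over-expression libraries. Among transporters placed in the vacuole, 5 of 14 rose and 4 fell in libraries labelled knock-down, and 6 of 13 rose and 1 fell in over-expression libraries. Transporters with no compartment beyond the membrane had 17 rises and 45 falls among 88 in libraries labelled knock-down, and 12 rises and 15 falls among 58 in over-expression libraries. Set against these are 17.6 percent higher and 36.7 percent lower among all loci listed for the knock-down label, and 37.9 percent higher and 13.6 percent lower for over-expression. The plasma membrane rises in over-expression libraries are thus near the background. Sets by compartment were made after the data were seen and were not tested. The proton pumps that energise many carriers are outside the transporter set. The plasma membrane ATPase BGIOSGA025316 had 7.70 FPKM in libraries labelled knock-down and 16.6 FPKM in wild type (q = 0.000868), and 8.96 FPKM in over-expression libraries and 17.3 FPKM in wild type (q = 0.00105), in the authors' deposited tables. Another plasma membrane ATPase, BGIOSGA037870, fell by 0.53 on a log2 scale in libraries labelled knock-down, per the authors' deposited table (q = 0.0241). The median of all loci listed for that label was -0.58, so the direction at BGIOSGA037870 depends on the scaling. Of the vacuolar proton pump, the subunit BGIOSGA001323 had 10.8 FPKM in libraries labelled knock-down and 20.04 FPKM in wild type (q = 0.000868), and the subunit VATP-P1 had 42.5 FPKM in over-expression libraries and 27.6 FPKM in wild type (q = 0.0467), in the authors' deposited tables. The log2 fold change of VATP-P1, 0.62, lay under the over-expression median of 0.67 for all listed loci, so its direction depends on the scaling. No aquaporin or antiporter was listed by name in either table.

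Some transporters lie next to each other, and several neighbours changed together. There were 17 pairs of transporter loci less than 30000 bases apart, made of 32 loci. Both members of a pair were called in 5 pairs in libraries labelled knock-down, and all 5 pairs had 1 direction before centring but 4 after it, when BGIOSGA001567 was at 0.09 and BGIOSGA001566 at -0.82 on the log2 scale. For scale, 65.5% of the 510 pairs of adjacent listed loci that near, both called, had 1 direction before centring, which is a description of the table and not a test. The transporter pairs were adjacent among transporters only, so other listed loci can lie between them and the pairs are not alike. On chromosome 1, BGIOSGA004890 (41352623 to 41354871) and BGIOSGA004891 lie 2874 bases apart. BGIOSGA004891 had 25.96 FPKM in libraries labelled knock-down and 1.89 FPKM in wild type, in the authors' deposited table (log2 fold change 3.78, q = 0.000868). This was the largest rise of any transporter in that table. For over-expression BGIOSGA004891 had 0.932 FPKM in the transgenic libraries, against 1.97 FPKM in wild type, in the authors' deposited table (q = 0.0581), while BGIOSGA004890 was not listed there. Further along, BGIOSGA004894 rose to 8.49 FPKM in libraries labelled knock-down, against 3.42 FPKM in wild type, and BGIOSGA004899 fell to 8.04 FPKM, against 12.7 FPKM in wild type, in the authors' deposited table (q = 0.000868 and q = 0.00565). The run of genes on chromosome 1 was therefore not uniform in direction.

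In over-expression libraries the 1 pair with both loci called was on chromosome 3, where BGIOSGA009362 and BGIOSGA009363 lie 6585 bases apart. BGIOSGA009362 had 69.8 FPKM in over-expression libraries and 16.3 FPKM in wild type, in the authors' deposited table (log2 fold change 2.10, q = 0.00105). BGIOSGA009363 had 14.5 FPKM in over-expression libraries and 2.53 FPKM in wild type, in the authors' deposited table (log2 fold change 2.52, q = 0.0168). At the knock-down label they had 24.1 and 8.40 FPKM, against 15.6 and 2.42 FPKM in wild type, and BGIOSGA009362 was called (q = 0.0194) and BGIOSGA009363 was not (q = 0.0620) in the authors' deposited table. Loci so close to each other can share reads where their models overlap or their sequences are alike, and how such reads were counted is not stated in the labels.

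**Figure D5:**
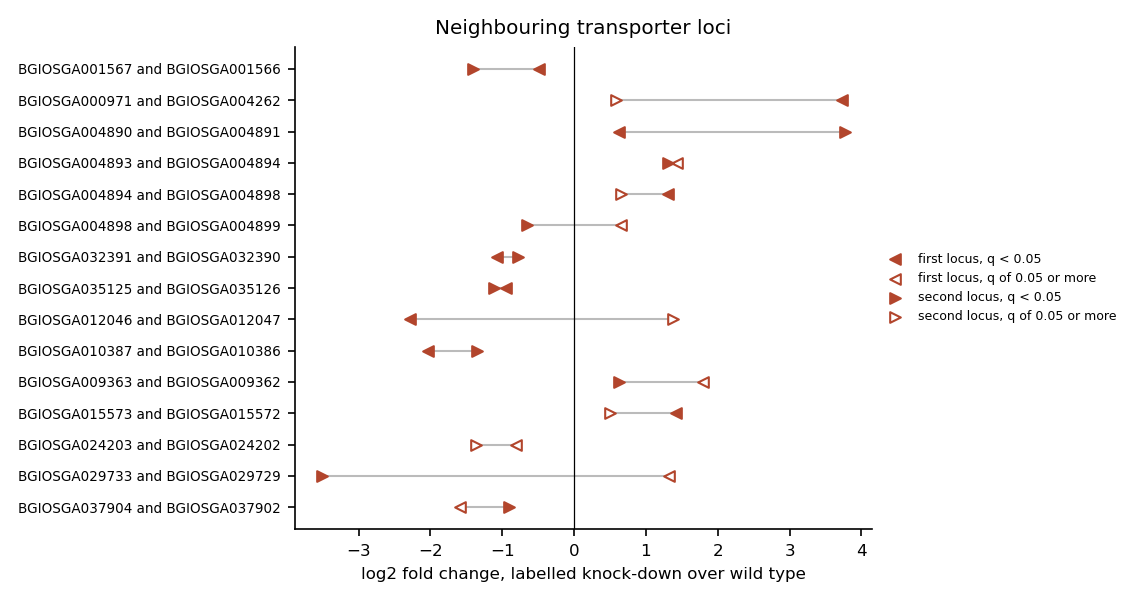
Log2 fold change in libraries labelled knock-down over wild type (x axis) for pairs of transporter loci less than 30000 bases apart (y axis). Only pairs with both loci listed for that label are shown, filled where q was under 0.05. Both loci were called in 5 pairs, including BGIOSGA010387 at -2.03 and BGIOSGA010386 at -1.35.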

How the data were processed

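Total RNA of 5-week-old seedlings was extracted with Trizol, per the labels' protocols, and 6 libraries in 3 groups of 2 were sequenced. The authors used Cufflinks 2.2.1 and Cuffdiff, per the submitters' processing notes; the aligner, genome build and read counting were not given in the sources used here. Coordinates are those of the 2 deposited tables. Per the file headers, each deposited table compares a transgenic group with wild type and gives the authors' FPKM, 1 pooled value per group. Deposited log2 fold changes are log2 ratios of transgenic to wild-type FPKM; recomputing them without a pseudocount differed by at most 1.68e-05. The deposited p-values reach 0.05, and the authors' q-values are their adjusted p-values. Values of 0 were absent, and columns left unassigned numbered 0. The wild-type FPKM of a locus differed between the tables by a median ratio of 1.04 over 1715 loci (over-expression table over the other), so levels were compared within a table.

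Members and lists were chosen with earlier results of these data known, so no test over a list was made. Loci were classed by protein name, otherwise by GO terms. MATE was read as a whole word, since it otherwise matched glutamate receptors, and ATPase-coupled terms went to the ABC class. Loci named were those called in both tables, the 3 largest called rises and falls per class that have a protein name, the 3 highest levels and the values next to the threshold, 47 in all; other loci named (small classes, neighbours, genes outside the transporters) were chosen after their values were seen. The reference table matched 0 locus identifiers and 7 of 9 symbols, so names are those in the deposited tables. No sequence is printed. Selection and counting were tested on simulated data. Alternatives were q under 0.01, 2-fold, a minimum of 1 FPKM, pseudocounts of 1 and 0.1 FPKM, centring and narrower or wider membership. Python 3.11.15, pandas 2.3.3, numpy 2.4.6 and matplotlib 3.10.9 were used.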

Additional observations from a re-analysis of the deposited data

How the results depend on the processing

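No paired analysis was possible because the tables give 1 pooled value per group, and for the same reason no library could be left out. Of 129 transporters for the knock-down label, 87 were called (31 higher, 56 lower); 2-fold left 48 (19 and 29), q under 0.01 left 59 (20 and 39), and names alone gave 18 (7 and 11). Of 96 for over-expression, 44 were called (27 higher, 17 lower); q under 0.01 left 24 (13 and 11), 2-fold 22 (16 and 6) and names alone 7 (5 and 2). The median of -0.60 for the knock-down label was -0.48 with a pseudocount of 1 FPKM, -0.59 with 0.1 FPKM, -0.60 at 1 FPKM or more, -0.016514 centred, -0.64 by GO alone, -0.54 by name alone and -0.59 with all compartments. The over-expression median of 0.45 was 0.40, 0.44, 0.44, -0.22, 0.37, 0.55 and 0.41 in the same order, so centring reversed it. Of 67 called values of the 47 loci that the naming rule takes, 58 kept their direction on centring and 9 reversed. For over-expression these were BGIOSGA000896 (-0.10), BGIOSGA001856 (-0.17), BGIOSGA014245 (-0.11), BGIOSGA005635 (-0.00042), BGIOSGA033375 (-0.17), BGIOSGA005122 (-0.008413) and BGIOSGA004923 (-0.16). For the knock-down label they were BGIOSGA001567 (0.087588) and BGIOSGA025620 (0.036599). Loci named outside the rule are not in this count, and BGIOSGA029263, BGIOSGA037870 and VATP-P1 among them also reversed. At q under 0.01, 21 of the 67 were no longer called. A pseudocount of 1 FPKM reversed 0 of 67. Centring subtracts the median of all listed loci and stricter thresholds drop calls by construction; other causes were not tested. Loci under 1 FPKM in both groups, 6 for the knock-down label and 5 for over-expression, rest on the least signal, and without counts their error is unknown.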

Other observations

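Transporters were also read by the GO process terms they carry, a grouping made after the data were seen and not tested. Over all listed loci, 17.6 percent rose and 36.7 percent fell for the knock-down label, and 37.9 percent rose and 13.6 percent fell for over-expression. Of the 15 with the term response to nematode, 4 of 11 listed rose and 5 fell in libraries labelled knock-down, and 1 of 12 rose and 2 fell in over-expression libraries. Of the 5 with the term response to auxin, 2 of 3 listed rose and 0 fell in libraries labelled knock-down, and 3 of 5 rose and 0 fell in over-expression libraries. Abscisic acid terms were held by 8 transporters, of which 1 of 7 listed rose and 2 fell in libraries labelled knock-down, and 1 of 4 rose and 1 fell in over-expression libraries.

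Among enzymes beside the transporters, 3 of 4 listed loci of the nitrogen assimilation list fell and 0 rose in libraries labelled knock-down, a keyword list that also caught folylpolyglutamate synthase. Of 2 listed for over-expression, 1 rose, an arginine biosynthesis protein caught by the same keywords, and 1 fell, a glutamine synthetase. Of the phosphatases and SPX proteins, 2 of 24 rose and 10 fell in libraries labelled knock-down, and 7 of 15 rose and 1 fell in over-expression libraries, near the shares of all listed loci given above. The list of loci with ATPase in the protein name mixed proton pumps with calcium pumps, Obg-like, chromatin-remodeling, katanin and chloroplast ATP synthase proteins. Of it 1 of 8 rose and 4 fell in libraries labelled knock-down, and 2 of 11 rose and 6 fell in over-expression libraries, of which the plasma membrane ATPase BGIOSGA025316 was the only proton pump of the plasma membrane or vacuole among the 6 falls.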
